A study of Homo sapiens with 12 samples.

Results

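Cholesterol and fatty acids are built from the same cytosolic acetyl-CoA, and the transcripts of both pathways are measured here as a set of 40 genes, each found by its symbol in the count tables, out of 16384 genes listed. They comprise 5 regulators, 18 enzymes of sterol synthesis, 2 genes of sterol transport and 15 fatty acid genes. The last serve synthesis, desaturation, elongation and activation of fatty acids, apart from LPIN1, a phosphatidate phosphatase. RNA came from MDA-MB-231, an established line from a triple-negative breast cancer, sequenced as poly(A) libraries made with a stranded kit. The CAR group received 10 µmol/L of CAR, which the series title gives as cardamonin, a plant chalcone. Cells of the JQ1 group were given JQ1 at 25 µmol/L, a small molecule that displaces BET bromodomain proteins from acetylated histones. The Combination group received both agents at these doses, and the DMSO group received the vehicle; each group had 3 libraries. All groups carry the genotype label WT, and the labels give no time of treatment.

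The sterol branch is governed by a feedback loop. When membrane sterol is plentiful, INSIG proteins hold the escort protein SCAP and its cargo, the SREBP transcription factors, in the endoplasmic reticulum; when sterol is scarce, SCAP carries them to the Golgi, where they are cut and released to the nucleus. SREBP-2, from SREBF2, acts mainly on genes of cholesterol synthesis, and SREBP-1, from SREBF1, mainly on genes of fatty acid synthesis, usually at promoters that also bind NF-Y at a CCAAT box. INSIG1 is itself a target of these factors, and the efflux pump ABCA1 is a target of the oxysterol receptors LXR, which act when sterol is in excess.

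Total counts ran from 17449715 to 19754456 per library. All 40 members passed the filter on low counts, as did 12645 of all genes listed, and the lowest count of any member in any library was 36, for ABCA1. Levels are counts scaled to the TMM-adjusted library size (CPM), which are not corrected for gene length and are compared here only within a gene. Changes are log2 fold changes ± SE, and a call needed a p below 0.05 in edgeR's quasi-likelihood test after the Benjamini-Hochberg adjustment over all genes tested. The labels name no separate cultures within a group, and the p-values therefore reflect the spread among these libraries, which may be technical. A pair of libraries stood apart from the rest. DMSO library 3 differed from the other two of its group with a chi-square of 10.6 and 12.6 per degree of freedom, against 1.46 to 2.31 for all other pairs within a group. Combination library 1 held transcripts of a liver marker list at a summed 161 CPM, against 1.39 to 3.72 CPM in the other libraries; leaving it out, 4 to 6 of the 15 markers were at 0 in every library of a group. Results whose call or size changed most without these libraries are given with both values. The 6 markers of mesenchymal triple-negative lines were all detected and had sums between 6707 and 6839 CPM (CAR), 3046 and 3082 CPM (JQ1), 2478 and 2650 CPM (Combination) and 6647 and 6844 CPM (DMSO); the part of this shift in the results was not tested. The 6 luminal and hormone receptor markers summed to 555 to 586 CPM in CAR and 678 to 747 CPM in DMSO libraries. In JQ1 libraries they summed to 704 to 742 CPM, and in Combination libraries to 439 to 473 CPM. KRT8 made up most of these sums, at group means of 456 to 716 CPM. The 5 adipocyte markers in the tables summed to no more than 4.06 CPM. In bulk RNA, fewer cells of a kind and less RNA per cell cannot be told apart.

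The promoters of 4 members are shown because these genes are turned to most often below: TM7SF2 and INSIG1 had the largest increases under JQ1 among the enzymes and the regulators, SREBF2 encodes the factor of the sterol branch, and MVK lay among the enzymes that fell. Each run is the window from 250 bases before to 50 after the gene's RefSeq start on GRCh38.p14, written along the gene. That start can differ from the GENCODE gene positions given below. The MVK window lies wholly after the GENCODE start of MVK. Capitals mark matches, on either strand, to CCAAT (read ATTGG on the other strand), to TCACNCCAC, a form of the sterol regulatory element, and to CACGTG, the E-box.
TM7SF2 promoter (chr11:65111622-65111921, plus strand): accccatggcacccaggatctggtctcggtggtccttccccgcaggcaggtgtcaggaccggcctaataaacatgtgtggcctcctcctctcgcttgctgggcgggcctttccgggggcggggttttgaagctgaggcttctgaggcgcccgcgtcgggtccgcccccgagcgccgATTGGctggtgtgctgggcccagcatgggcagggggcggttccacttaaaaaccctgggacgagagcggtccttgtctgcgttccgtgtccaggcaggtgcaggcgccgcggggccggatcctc
INSIG1 promoter (chr7:155297628-155297927, plus strand): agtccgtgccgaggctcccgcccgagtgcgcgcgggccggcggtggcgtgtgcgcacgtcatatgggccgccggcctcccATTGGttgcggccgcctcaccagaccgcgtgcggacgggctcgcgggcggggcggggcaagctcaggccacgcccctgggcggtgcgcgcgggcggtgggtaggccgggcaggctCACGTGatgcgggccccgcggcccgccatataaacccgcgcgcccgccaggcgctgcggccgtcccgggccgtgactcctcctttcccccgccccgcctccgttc
SREBF2 promoter (chr22:41832855-41833154, plus strand): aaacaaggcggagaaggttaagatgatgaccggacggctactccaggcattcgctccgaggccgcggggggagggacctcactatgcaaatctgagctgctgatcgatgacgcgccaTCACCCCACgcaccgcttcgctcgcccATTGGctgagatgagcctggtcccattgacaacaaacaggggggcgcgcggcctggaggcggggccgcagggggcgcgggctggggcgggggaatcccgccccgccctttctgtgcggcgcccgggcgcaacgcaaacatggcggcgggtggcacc
MVK promoter (chr12:109573544-109573843, plus strand): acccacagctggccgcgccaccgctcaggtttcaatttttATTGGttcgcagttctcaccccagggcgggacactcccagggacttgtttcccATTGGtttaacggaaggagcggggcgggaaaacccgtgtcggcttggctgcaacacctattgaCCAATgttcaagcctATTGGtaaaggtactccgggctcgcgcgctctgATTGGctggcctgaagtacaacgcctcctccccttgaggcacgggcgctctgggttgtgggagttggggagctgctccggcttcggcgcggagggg
MVK had 5 matches to CCAAT in its window, and TM7SF2, INSIG1 and SREBF2 had 1 each. SREBF2 alone of the 4 had TCACNCCAC, and INSIG1 alone had CACGTG.

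Windows were found for 36 of the 40 members. A gene was counted once if any of its windows held a match. CCAAT was found for 13 of 15 sterol enzymes (86.7%) and 10 of 14 fatty acid genes (71.4%). Of all 27305 genes with a window, 39.7% had it. That wider set was not limited to genes that passed the filter on low counts, as all members did, so the shares here compare unlike sets. Genes with several windows, such as ACSL1 with 5 and IDI1 with 3, had more chances to match. TCACNCCAC, which contains the shorter CACNCCA, stood in SREBF2 and ACSL1 and in 1.39% of all genes. CACNCCA stood in 7 of the sterol enzymes (46.7%) and 7 of the fatty acid genes (50%), against 20.6% of all genes, and CACGTG in 6 of 36 members (16.7%), against 8.77% of all. Genes with CCAAT were found among those that rose under JQ1 and among those that fell. A match is only a run of letters, and its absence says nothing of a factor's binding.

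Among the regulators, JQ1 raised all 5 genes, and CAR lowered 3 and raised none. Over all genes tested, 83.7% were called under JQ1 (41.5% higher and 42.2% lower) and 57.3% under CAR (27.3% higher and 30.1% lower), and the 5 regulators had median log2 fold changes of 0.53 under JQ1 and -0.21 under CAR, against -0.01 and -0.02 over all genes. In the Combination 4 were higher than in DMSO and none lower, at an unadjusted p under 0.05 as well and with DESeq2, beside 85.4% of all genes called (42.6% higher and 42.8% lower); with total-count scaling 3 were higher and 1, SREBF1, was lower. INSIG1 (hg38, chr7:155297776-155310235, plus strand), which retains SCAP in the endoplasmic reticulum, stood at 807, 805 and 787 CPM in JQ1 libraries and at 1058, 1023 and 1021 CPM in Combination libraries. It stood at 289, 294 and 288 CPM in CAR libraries and at 290.2, 290.4 and 296 CPM in DMSO libraries. The JQ1 and Combination libraries were thus all above the highest DMSO library, and those of CAR overlapped the DMSO range. INSIG1 rose 2.74-fold under JQ1 (log2 1.45 ± 0.0332, adjusted p = 4.33e-20) and 3.54-fold under the Combination (log2 1.82 ± 0.0334, adjusted p = 1.22e-21), and under CAR its log2 fold change was -0.01 ± 0.0331 (adjusted p = 0.841).

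SCAP, the escort of the SREBPs, had 104, 103 and 106 CPM in JQ1 libraries and 148, 159.6 and 161 CPM in Combination libraries. CAR libraries had 76.5, 77.8 and 75.8 CPM and DMSO libraries 75.6, 74 and 78 CPM. The Combination libraries were the highest of the 12, with no overlap with any other group. SCAP rose 1.37-fold under JQ1 (log2 0.46 ± 0.0422) and 2.06-fold under the Combination (log2 1.04 ± 0.0415), and exceeded JQ1 alone by 1.5-fold in the Combination (adjusted p = 1.38e-10). Its log2 fold change under CAR was 0.02 ± 0.0428 (adjusted p = 0.77). INSIG2, the second retention protein, averaged 17.9 ± 0.605 CPM in CAR, 23 ± 0.323 CPM in JQ1, 26.6 ± 1.72 CPM in Combination and 20.7 ± 0.622 CPM in DMSO libraries (SD, n = 3 each). It fell under CAR (log2 -0.21 ± 0.065) and rose under the Combination (log2 0.36 ± 0.0626). Its smaller rise under JQ1 (log2 0.15 ± 0.0634, adjusted p = 0.0374) lost the call without DMSO library 1 (adjusted p = 0.0994), without DMSO library 2 (adjusted p = 0.0908) and without JQ1 library 1, 2 or 3 (adjusted p = 0.0609, 0.0533 and 0.0835). It was not called with DESeq2 either (adjusted p = 0.118), nor with total-count scaling (log2 0.03, adjusted p = 0.689) or upper-quartile scaling (log2 0.09, adjusted p = 0.213).

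SREBF1 (chr17:17810399-17837002, minus strand) had 95.5, 95.9 and 86.7 CPM in CAR libraries and 226, 232 and 238 CPM in JQ1 libraries. Combination libraries had 150.0, 156 and 154 CPM, and DMSO libraries 145, 140.1 and 151 CPM. CAR libraries were all below and JQ1 libraries all above the DMSO range, while Combination libraries overlapped it. SREBF1 fell 1.57-fold under CAR (log2 -0.65 ± 0.0444, adjusted p = 9.27e-11) and rose 1.59-fold under JQ1 (log2 0.67 ± 0.0427, adjusted p = 2.06e-12). Against JQ1 alone it was 1.51-fold lower in the Combination (log2 -0.60 ± 0.0428, adjusted p = 2.14e-10). In the Combination against DMSO its log2 fold change was 0.07 ± 0.0434 (adjusted p = 0.113), and 0.11 without DMSO library 3 (adjusted p = 0.00703), but -0.13 with total-count scaling (adjusted p = 0.00789). SREBF1 overlaps RAI1 on the opposite strand, and RAI1 averaged 92.9, 29.1, 22.4 and 91.6 CPM in CAR, JQ1, Combination and DMSO libraries. Whether strand was used in counting is not given in the sources used here, and without it reads of overlapping genes cannot be told apart.

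SREBF2 (chr22:41833079-41907308, plus strand) averaged 288 ± 4.64 CPM in CAR, 479 ± 6.57 CPM in JQ1, 383 ± 11.5 CPM in Combination and 332 ± 24 CPM in DMSO libraries. It fell under CAR (log2 -0.21 ± 0.0435), rose under JQ1 (log2 0.53 ± 0.0432) and rose less under the Combination (log2 0.21 ± 0.0433), which was below JQ1 alone (log2 -0.33 ± 0.0431, adjusted p = 1.98e-06). The rise in the Combination did not hold when libraries were scaled by their total count (log2 -0.00). The interaction, which is the effect of CAR in the presence of JQ1 minus its effect without JQ1, was 0.05 ± 0.0616 for SREBF1 (adjusted p = 0.531) and -0.12 ± 0.0612 for SREBF2 (adjusted p = 0.131). For SCAP, INSIG1 and INSIG2 it was above 0, at 0.57 ± 0.0591, 0.38 ± 0.0461 and 0.42 ± 0.0902 on the log2 scale.

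**Figure D1:**
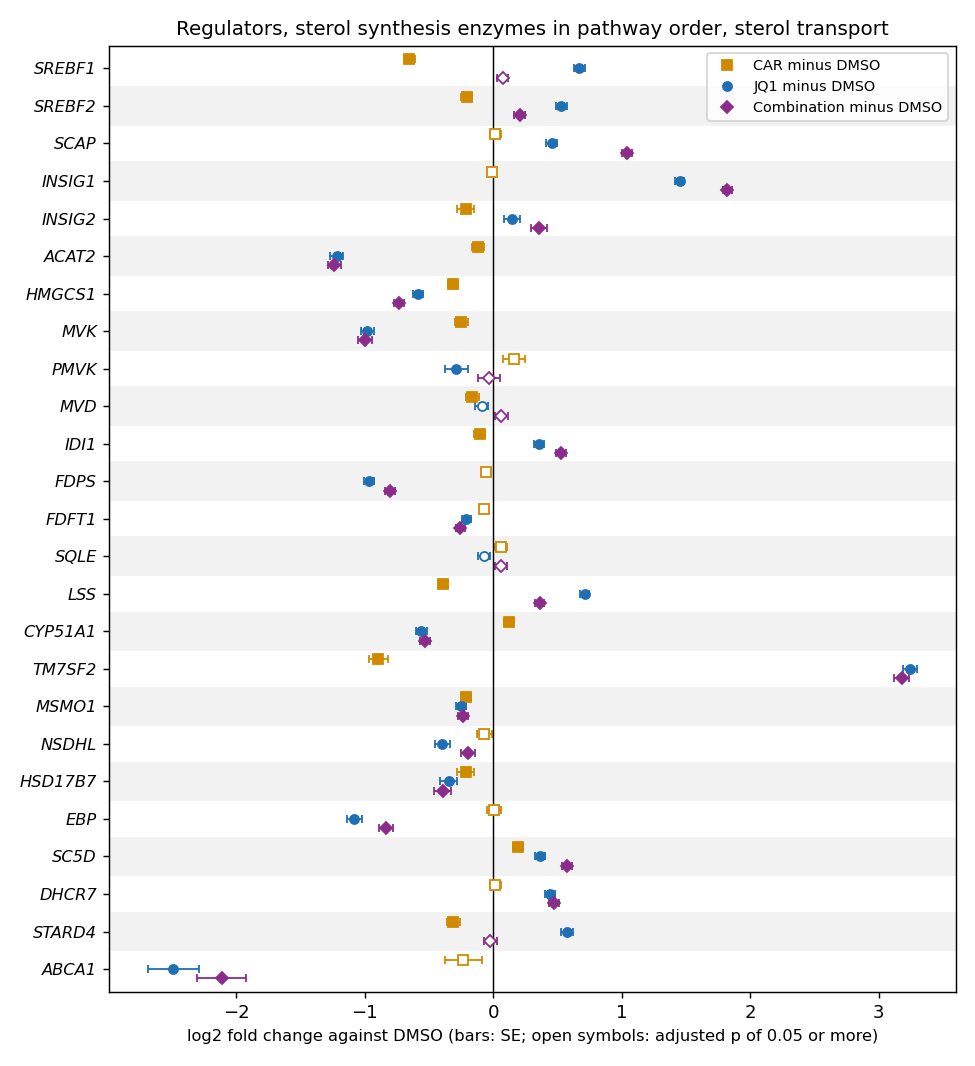
Log2 fold change against DMSO (horizontal axis) of the 5 regulators, 18 sterol synthesis enzymes in pathway order and 2 sterol transport genes, for CAR, JQ1 and Combination, with bars for SE and open symbols where the adjusted p was 0.05 or more. TM7SF2 lies far to the right under JQ1 (3.24) and the Combination (3.18), while ACAT2, MVK, FDPS, EBP and ABCA1 lie to the left in both.

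JQ1 did not move the sterol pathway as a block. Of the 18 enzymes, 5 rose and 11 fell, with a median log2 fold change of -0.27, beside 41.5% of all genes called higher and 42.2% called lower. At a change of at least 1.5-fold, 2 enzymes were higher and 5 lower, where 50.5% of all genes passed (23.3% higher and 27.3% lower). The enzymes that fell were spread along the pathway, from ACAT2 at its start through FDPS, FDFT1 and CYP51A1 to EBP. Those that rose were IDI1, LSS, TM7SF2, SC5D and DHCR7, and MVD and SQLE did not pass the test. The split of all enzymes called was 5 higher and 13 lower when libraries were scaled by total count, a scaling that moves the median of all genes to -0.13.

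TM7SF2, which reduces the sterol ring after the demethylation by CYP51A1, changed more than any other enzyme of the list. It had 228, 227 and 239 CPM in JQ1 libraries and 216, 227 and 222 CPM in Combination libraries. It had 14.2, 13.7 and 11.6 CPM in CAR libraries, and 25.3, 22.3 and 25.7 CPM in DMSO libraries. CAR libraries were all below and JQ1 and Combination libraries all above the DMSO range. TM7SF2 rose 9.47-fold under JQ1 (log2 3.24 ± 0.056, adjusted p = 8.94e-22) and 9.06-fold under the Combination (log2 3.18 ± 0.0561), and fell 1.86-fold under CAR (log2 -0.89 ± 0.0727, adjusted p = 1.44e-09). The Combination differed from JQ1 alone by -0.06 ± 0.0463 on the log2 scale (adjusted p = 0.26), so the interaction was 0.83 ± 0.0864 (adjusted p = 2.51e-07). This interaction holds on the log2 scale. Counted in CPM, the fall with CAR was of similar size without JQ1 (mean 24.4 in DMSO, 13.2 in CAR) and with it (232 in JQ1, 222 in Combination). TM7SF2 (hg38, chr11:65111845-65116384, plus strand) overlaps VPS51 on the same strand, and VPS51 averaged 65.8, 77.7, 82.2 and 67.3 CPM in CAR, JQ1, Combination and DMSO libraries. How the counting treated reads in the overlap is not given in the sources used here.

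LSS (chr21:46188141-46228824, minus strand), lanosterol synthase, closes squalene epoxide into the first sterol. It had 607, 616 and 632 CPM in JQ1, 479, 476 and 499.9 CPM in Combination and 294, 289 and 281 CPM in CAR libraries, against 386, 379.6 and 366 CPM in DMSO libraries. The 4 groups did not overlap, with CAR lowest and JQ1 highest. LSS rose 1.64-fold under JQ1 (log2 0.71 ± 0.0359, adjusted p = 3.41e-14) and 1.29-fold under the Combination (log2 0.36 ± 0.0359), and fell 1.31-fold under CAR (log2 -0.39 ± 0.0362, adjusted p = 1.07e-08). IDI1, which isomerises isopentenyl diphosphate, SC5D, which desaturates the sterol ring, and DHCR7, the final reductase of one route to cholesterol, rose under JQ1 by 0.36 ± 0.0411, 0.37 ± 0.0394 and 0.44 ± 0.0393 on the log2 scale. In the Combination these rises were 0.53 ± 0.0411, 0.58 ± 0.0393 and 0.48 ± 0.0393.

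ACAT2, the thiolase that joins acetyl-CoA units at the start of the pathway, had 89.1, 82.4 and 91.2 CPM in JQ1 and 87.4, 86.8 and 85.5 CPM in Combination libraries. It had 181, 190.2 and 192 CPM in CAR and 196, 196 and 219 CPM in DMSO libraries. ACAT2 fell 2.33-fold under JQ1 (log2 -1.22 ± 0.0481, adjusted p = 4.79e-16) and 2.35-fold under the Combination (log2 -1.23 ± 0.0483), with every library of both groups below every DMSO library. ACAT2 overlaps TCP1 and SOD2 on the opposite strand; TCP1 averaged 179.8 CPM in JQ1 and 208 CPM in DMSO libraries, and SOD2 126 CPM in JQ1 and 80.6 CPM in DMSO libraries.

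EBP (chrX:48521158-48528716, plus strand), the sterol isomerase late in the pathway, had 32.6, 31.8 and 33.1 CPM in JQ1 and 39.8, 36.6 and 39.4 CPM in Combination libraries, against 67.2, 64.4 and 74.4 CPM in DMSO libraries. All JQ1 and Combination libraries were below every DMSO library, and JQ1 libraries were the lowest. It fell 2.11-fold under JQ1 (log2 -1.08 ± 0.0565, adjusted p = 7.01e-14) and 1.78-fold under the Combination (log2 -0.83 ± 0.0557), which stood above JQ1 alone (log2 0.25 ± 0.0608, adjusted p = 0.00176). MVK (chr12:109573255-109598117, plus strand), mevalonate kinase, had 30, 29.7 and 30.7 CPM in JQ1 and 29.5, 29.1 and 30.7 CPM in Combination libraries. CAR libraries had 51.2, 50.1 and 48.8 CPM of MVK and DMSO libraries 58, 56.9 and 63.2 CPM, so that both JQ1 and Combination libraries lay at about the same low level and CAR libraries between them and DMSO. MVK fell 1.97-fold under JQ1 (log2 -0.98 ± 0.0528, adjusted p = 1.22e-13) and 2-fold under the Combination (adjusted p = 8.99e-14). MVK overlaps MMAB on the opposite strand, which averaged 31 CPM in JQ1 and 41.2 CPM in DMSO libraries.

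FDPS, which makes farnesyl diphosphate, averaged 161 ± 3.37 CPM in JQ1 and 181 ± 1.62 CPM in Combination libraries, against 315 ± 14.8 CPM in DMSO libraries, and fell 1.95-fold and 1.74-fold. HMGCS1, which makes HMG-CoA, averaged 192 ± 3.35 CPM in CAR, 158 ± 1.44 CPM in JQ1, 143 ± 5.67 CPM in Combination and 238 ± 9.58 CPM in DMSO libraries, and fell in all 3 treated groups, by 0.31 ± 0.039, 0.59 ± 0.0395 and 0.73 ± 0.0398 on the log2 scale. HMGCS1 was lower in the Combination than with JQ1 alone (log2 -0.14, adjusted p = 0.00516) and than with CAR alone (log2 -0.42). CYP51A1, the lanosterol demethylase, fell 1.47-fold under JQ1 (log2 -0.56 ± 0.0408). The other 5 enzymes that fell under JQ1 did so by 0.21 to 0.40 on the log2 scale: FDFT1 (squalene synthase), MSMO1, NSDHL and HSD17B7 (which strip and reduce the methyl-bearing ring position) and PMVK (phosphomevalonate kinase; log2 -0.28, and -0.17 without DMSO library 3, adjusted p = 0.0485). MVD was called lower under JQ1 when DMSO library 2 was left out (log2 -0.15, adjusted p = 0.0062). SQLE, squalene epoxidase, averaged 70.1 ± 1.62 CPM in CAR, 64 ± 1.17 CPM in JQ1, 69.9 ± 4.26 CPM in Combination and 67.1 ± 1.01 CPM in DMSO libraries, and passed the test in none of these groups against DMSO (adjusted p = 0.248, 0.179 and 0.247), though it did in the Combination when library 3 of that group was left out (log2 0.11, adjusted p = 0.0409).

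Under CAR alone, 2 sterol enzymes rose and 9 fell, with a median log2 fold change of -0.09, beside 27.3% of all genes called higher and 30.1% called lower. At 1.5-fold, TM7SF2 was the single enzyme called, where 13.2% of all genes passed (3.72% higher and 9.43% lower). After TM7SF2 and LSS, the largest falls were those of HMGCS1 (log2 -0.31 ± 0.039), MVK (log2 -0.25 ± 0.0493), MSMO1 (log2 -0.21 ± 0.039) and HSD17B7 (log2 -0.21 ± 0.0655). SC5D rose (log2 0.19 ± 0.0394), as did CYP51A1 (log2 0.12 ± 0.0399, adjusted p = 0.013; 0.0571 without CAR library 2); with total-count scaling CYP51A1 had 0.06 (adjusted p = 0.237) and with upper-quartile scaling 0.09 (adjusted p = 0.0616). The falls of ACAT2 and IDI1 were small (log2 -0.12 ± 0.0456 and -0.11 ± 0.0414) and lost the call without DMSO library 3 (adjusted p = 0.131 and 0.0619), without CAR library 1 (0.157 and 0.117) or without CAR library 2 (0.0619 and 0.0930); IDI1 also lost it without JQ1 library 2 (0.0505). HSD17B7 lost it without CAR library 1 (0.0516) or 3 (0.0568). Without DMSO library 3, 3 enzymes rose and 7 fell.

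In the Combination, 5 sterol enzymes rose and 10 fell against DMSO, with a median of -0.21, beside 42.6% of all genes called higher and 42.8% called lower and a median over all genes of 0.00. At 1.5-fold, TM7SF2 was higher and 5 enzymes were lower, where 53.5% of all genes passed (24.6% higher and 28.9% lower). With total-count scaling 5 rose and 13 fell. Against JQ1 alone, 8 sterol enzymes were higher in the Combination and 2, LSS and HMGCS1, were lower, with a median of 0.03. The 8 were PMVK, MVD, IDI1, FDPS, SQLE, NSDHL, EBP and SC5D, of which PMVK, MVD, SQLE and NSDHL lost the call when 1 of the Combination or JQ1 libraries was left out (for SQLE adjusted p = 0.0810 to 0.105 without JQ1 library 1 or 2 or Combination library 1, and higher without Combination library 2). Of all genes 51.9% were called (26% higher and 25.9% lower). None of these enzymes differed by 1.5-fold, where 11% of all genes did (4.05% higher and 6.99% lower), nor did any do so with DESeq2. Differences of this size turned on the scaling: with total-count scaling 2 enzymes were higher and 4 lower, and the share of all genes called that were higher moved to 32.9%, against 50.1% with TMM. Against CAR alone, 6 were higher and 10 lower, beside 85.4% of all genes called (42.4% higher and 43% lower), and TM7SF2 was 16.8-fold higher (log2 4.07 ± 0.0613). Of these calls PMVK, NSDHL and HSD17B7 were lost with DESeq2 (adjusted p = 0.0859, 0.0859 and 0.0533). PMVK also lost its call without CAR library 1 or 2, JQ1 library 2 or Combination library 1 (adjusted p = 0.0513 to 0.218), NSDHL without CAR library 1 or 3, JQ1 library 1 or Combination library 2 or 3 (0.0515 to 0.168), and HSD17B7 without CAR library 2 or Combination library 2 (0.177 and 0.0910). At 1.5-fold, 3 were higher and 5 lower, where 55.8% of all genes passed (26.9% higher and 29% lower).

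The 2 transport genes moved in different directions under JQ1. ABCA1 (chr9:104781002-104928237, minus strand), which exports cholesterol to apolipoproteins, had 2.61, 1.99 and 2.1 CPM in JQ1 and 3.84, 2.38 and 2.52 CPM in Combination libraries. CAR libraries had 11.1, 10.7 and 10.4 CPM, and DMSO libraries 13.5, 15.1 and 9.24 CPM, of which library 3 was the lowest. JQ1 and Combination libraries were all below every DMSO library, and CAR libraries lay within the DMSO range. ABCA1 fell 5.61-fold under JQ1 (log2 -2.49 ± 0.197, adjusted p = 2.48e-09) and 4.32-fold under the Combination (log2 -2.11 ± 0.19, adjusted p = 1.28e-08). Its log2 fold change under CAR was -0.23 ± 0.145 (adjusted p = 0.186), -0.41 without DMSO library 3 (adjusted p = 0.000813) and -0.08 without DMSO library 2. STARD4, which carries sterol between membranes, averaged 77 ± 0.665 CPM in CAR, 142 ± 5.38 CPM in JQ1, 94 ± 3.32 CPM in Combination and 95.4 ± 6.95 CPM in DMSO libraries. It fell under CAR (log2 -0.31 ± 0.0494), rose under JQ1 (log2 0.57 ± 0.0479), and in the Combination differed from DMSO by -0.02 ± 0.0492 (adjusted p = 0.706).

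**Figure D2:**
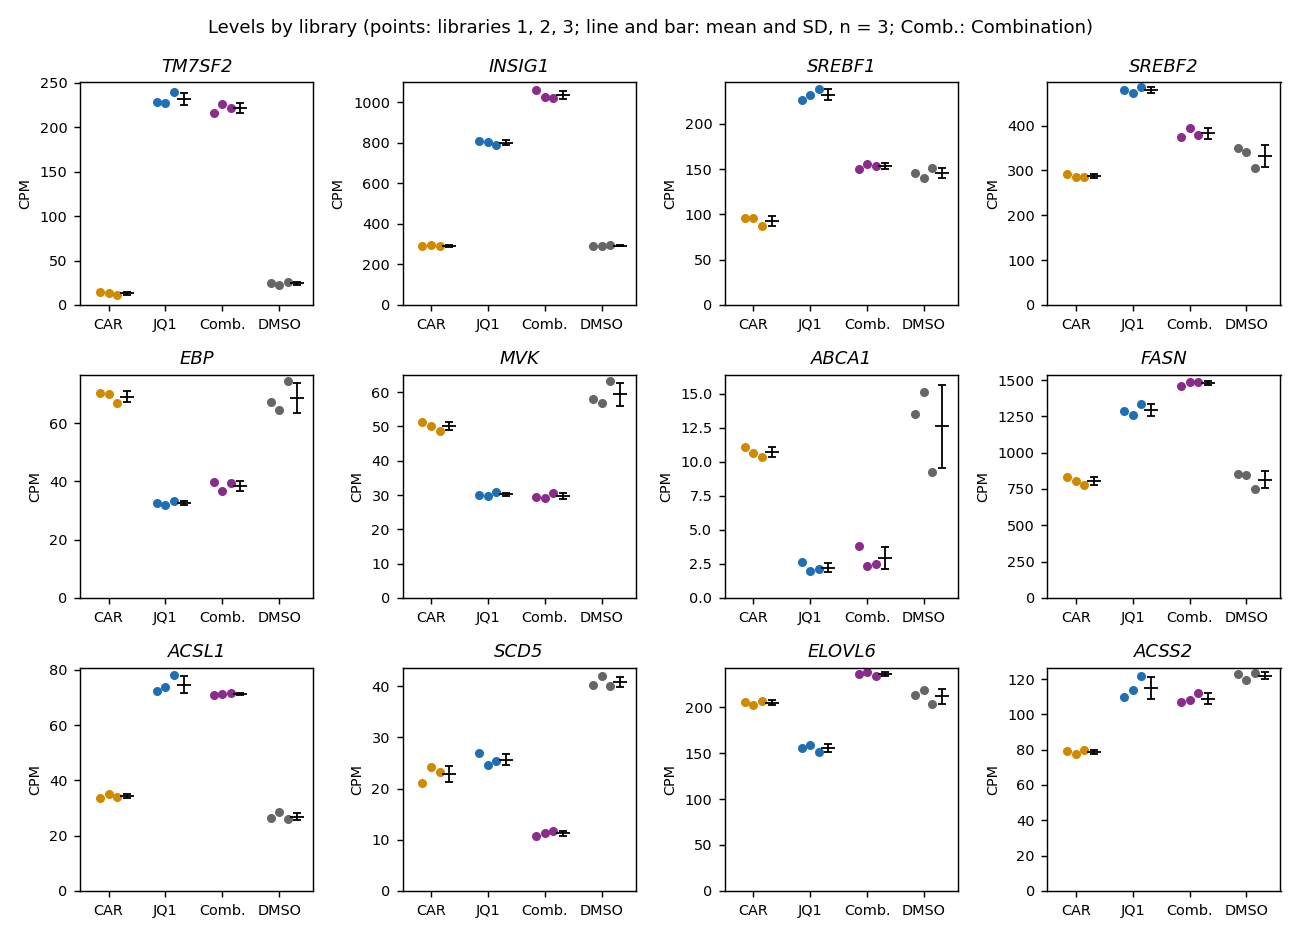
CPM (vertical axis, from 0) of 12 members in each of the 12 libraries, with the mean and SD of the 3 libraries of a group. TM7SF2 and INSIG1 are high in JQ1 and Combination and low in CAR and DMSO, SREBF1 is low in CAR and high in JQ1, and SCD5 is lowest in Combination, at 10.7 to 11.7 CPM.

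Among the fatty acid genes, JQ1 raised 7 of 15 and lowered 5, with a median log2 fold change of -0.00 and a mean over genes that was above 0 in every JQ1 library (0.161 to 0.163 on the log2 scale against the DMSO mean). Over all genes 83.7% were called (41.5% higher and 42.2% lower). At 1.5-fold, 4 fatty acid genes were higher and 1 lower, where 50.5% of all genes passed (23.3% higher and 27.3% lower). The 4 were ACSL1, ACACA, FASN and SCD, and the 1 was SCD5. FASN (chr17:82078333-82098332, minus strand), the synthase that builds palmitate, had 1289, 1258 and 1336 CPM in JQ1 and 1462, 1489 and 1488 CPM in Combination libraries, against 851, 843 and 747 CPM in DMSO libraries. All JQ1 and Combination libraries were above every DMSO library, of which library 3 was the lowest. FASN rose 1.59-fold under JQ1 (log2 0.67 ± 0.0436, adjusted p = 3.34e-12) and 1.82-fold under the Combination (log2 0.86 ± 0.0437, adjusted p = 3.49e-14). CAR libraries had 833, 806 and 777 CPM of FASN, and its log2 fold change under CAR was -0.01 ± 0.0436 (adjusted p = 0.79), and -0.07 without DMSO library 3 (adjusted p = 0.0204).

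ACACA, the carboxylase that makes malonyl-CoA for FASN, averaged 314 ± 4.07 CPM in JQ1, 281 ± 3.82 CPM in Combination and 209 ± 6.04 CPM in CAR libraries, against 188 ± 26.5 CPM in DMSO libraries. It rose 1.67-fold under JQ1 (log2 0.74 ± 0.0704) and 1.49-fold under the Combination (log2 0.58 ± 0.0706), and under CAR its log2 fold change was 0.15 ± 0.0708 (adjusted p = 0.0805). It was 0.05 without DMSO library 3 (adjusted p = 0.22), and without DMSO library 2 the adjusted p was 0.00138. SCD, the main stearoyl-CoA desaturase, had 3294, 3313 and 3297 CPM in JQ1 and 2839, 2902 and 2832 CPM in Combination libraries, against 2223, 2317 and 1968 CPM in DMSO libraries. JQ1 libraries were the highest, and the JQ1, Combination and DMSO libraries did not overlap, while CAR libraries, at 2019, 1997 and 2036 CPM, lay within the DMSO range. SCD rose 1.52-fold under JQ1 (log2 0.61 ± 0.0431, adjusted p = 1.56e-11) and 1.32-fold under the Combination (log2 0.40 ± 0.043). The fall of SCD under CAR (log2 -0.11 ± 0.043, adjusted p = 0.0419) lost the call in 14 of 20 other settings, among them leaving out any single library except DMSO library 3 (adjusted p = 0.0567 to 0.268); without DMSO library 3 it was -0.17 (adjusted p = 2.4e-08). ACLY, which splits citrate into the acetyl-CoA used by both pathways, rose by 0.13 ± 0.0384 under JQ1 and 0.12 ± 0.0385 under the Combination on the log2 scale; with total-count scaling the values were 0.01 and -0.08, and without DMSO library 3 they were 0.09 and 0.08.

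SCD5 (chr4:82629539-82798857, minus strand), a desaturase of a second subfamily, moved against SCD under JQ1 and the Combination. It had 21.1, 24.1 and 23.2 CPM in CAR, 26.9, 24.6 and 25.4 CPM in JQ1 and 10.7, 11.3 and 11.7 CPM in Combination libraries, against 40.3, 42 and 40.1 CPM in DMSO libraries. Every treated library was below every DMSO library, and the Combination libraries were below both single agents. SCD5 fell 1.79-fold under CAR (log2 -0.84 ± 0.0601, adjusted p = 2e-10), 1.59-fold under JQ1 (log2 -0.67 ± 0.0599) and 3.63-fold under the Combination (log2 -1.86 ± 0.069, adjusted p = 1.38e-16). On the log2 scale the fall with both agents exceeded the sum of the single falls, with an interaction of -0.35 ± 0.0963 (adjusted p = 0.00653). Counted in CPM it was smaller than that sum. Mean levels were 22.8 CPM in CAR, 25.7 CPM in JQ1, 11.2 CPM in Combination and 40.8 CPM in DMSO libraries.

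The acyl-CoA synthetases, which activate fatty acids for use in lipids, did not move together. ACSL1 (chr4:184755595-184826818, minus strand) had 72.2, 73.9 and 78 CPM in JQ1, 71.1, 71.1 and 71.6 CPM in Combination and 33.7, 35.1 and 34 CPM in CAR libraries, against 26.3, 28.5 and 26 CPM in DMSO libraries. All treated libraries were above every DMSO library. ACSL1 rose 2.78-fold under JQ1 (log2 1.47 ± 0.0506, adjusted p = 4.33e-17), 2.65-fold under the Combination (log2 1.41 ± 0.051) and 1.27-fold under CAR (log2 0.35 ± 0.0543). ACSL3 rose in all 3 groups (log2 0.17 ± 0.0401 under CAR, 0.56 ± 0.0399 under JQ1 and 0.35 ± 0.0402 under the Combination). ACSL4, which prefers polyunsaturated substrates, fell under JQ1 (log2 -0.26 ± 0.047) and the Combination (log2 -0.46 ± 0.0477).

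ACSS2, which makes acetyl-CoA from acetate, fell under CAR to 79.3, 77.4 and 79.8 CPM, against 123, 119.6 and 123 CPM in DMSO libraries (1.55-fold, log2 -0.63 ± 0.043, adjusted p = 9.82e-11). In JQ1 libraries ACSS2 had 109.7, 114 and 122 CPM and in Combination libraries 107, 108 and 112 CPM. The log2 fold change was -0.08 ± 0.0421 under JQ1 (adjusted p = 0.0741, and 0.0131 without JQ1 library 3) and -0.16 ± 0.0424 under the Combination (adjusted p = 0.00141). Its interaction was 0.55 ± 0.0607 (adjusted p = 5.15e-07), so that the fall under CAR was smaller where JQ1 was present. ACSS2 overlaps GGT7 on the opposite strand, which averaged 13.3 CPM in CAR and 19.0 CPM in DMSO libraries.

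**Figure D3:**
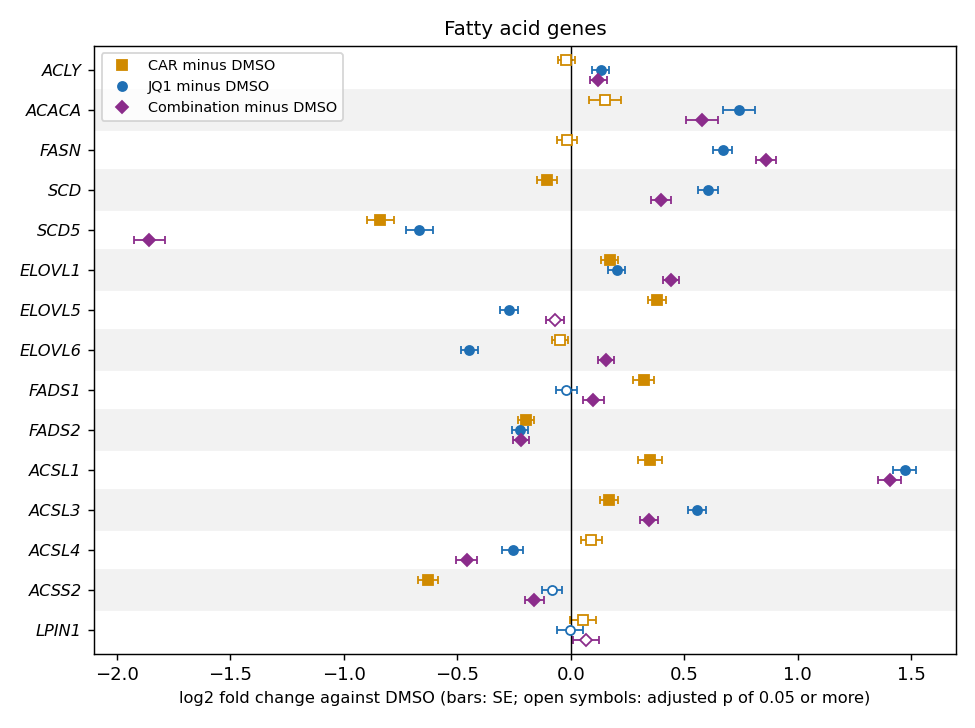
Log2 fold change against DMSO (horizontal axis) of the 15 fatty acid genes for CAR, JQ1 and Combination, with bars for SE and open symbols where the adjusted p was 0.05 or more. ACSL1, FASN, ACACA and SCD lie to the right under JQ1, SCD5 lies to the left in all 3 groups and furthest in the Combination (-1.86), and ELOVL6 lies on opposite sides under JQ1 (-0.45) and the Combination (0.16).

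Elongases extend the acyl chain, and their transcripts were split. ELOVL6 (chr4:110045846-110199199, minus strand), which extends palmitate, had 156, 159 and 151 CPM in JQ1 libraries and 236, 238 and 234 CPM in Combination libraries. CAR libraries had 205, 202 and 207 CPM, and DMSO libraries 213, 219 and 203 CPM. JQ1 libraries were all below and Combination libraries all above the DMSO range. ELOVL6 fell 1.36-fold under JQ1 (log2 -0.45 ± 0.0375, adjusted p = 2.78e-10) and was 1.52-fold higher in the Combination than with JQ1 alone (log2 0.60 ± 0.0376, adjusted p = 2.39e-11). The rise of ELOVL6 in the Combination against DMSO (log2 0.16 ± 0.0369, adjusted p = 0.000538) became -0.05 with total-count scaling.

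ELOVL5, which extends polyunsaturated chains, averaged 393 ± 7.76 CPM in CAR, 249.5 ± 9.5 CPM in JQ1, 288 ± 5.23 CPM in Combination and 302 ± 13.8 CPM in DMSO libraries. It rose under CAR (log2 0.38 ± 0.0394) and fell under JQ1 (log2 -0.27 ± 0.0399). ELOVL1, which makes very long chains, rose in all 3 groups, most in the Combination (log2 0.44 ± 0.0373). FADS1 and FADS2, the front-end desaturases of polyunsaturated synthesis, lie beside each other on opposite strands with overlapping gene bodies. FADS1 rose under CAR (log2 0.32 ± 0.0454), had a log2 fold change of -0.02 ± 0.0456 under JQ1 (adjusted p = 0.698; -0.09 without DMSO library 3, adjusted p = 0.00193), and in the Combination had 0.10 ± 0.0456 (adjusted p = 0.0478). That call was lost without DMSO library 3 (adjusted p = 0.253), which had the lowest FADS1 level of its group, without Combination library 1, 2 or 3 (0.0898, 0.0991 and 0.0767), without any CAR library (0.0592 to 0.0599) and without JQ1 library 1 or 3 (0.0577 and 0.0565). FADS2 fell in all 3 groups by 0.20 ± 0.0357, 0.22 ± 0.0357 and 0.22 ± 0.0357 on the log2 scale. FADS2 also overlaps FEN1 on the same strand, and FEN1 averaged 143, 27.9, 33.4 and 154 CPM in CAR, JQ1, Combination and DMSO libraries. LPIN1, a phosphatidate phosphatase and coactivator, averaged 192 ± 4.2, 184 ± 1.24, 193 ± 4.38 and 185 ± 21.1 CPM in CAR, JQ1, Combination and DMSO libraries, and was called in none of the comparisons; its log2 fold change under JQ1 was -0.00 ± 0.0569 (adjusted p = 0.975), and -0.09 without DMSO library 3 (adjusted p = 0.0082).

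Under CAR alone, 5 fatty acid genes rose and 4 fell, with a median log2 fold change of 0.05, beside 57.3% of all genes called (27.3% higher and 30.1% lower). Without DMSO library 3, in which the median log2 ratio of these genes to the DMSO mean was -0.0772 (0.0181 and 0.0540 in the other DMSO libraries), 5 rose and 7 fell and the median was -0.04. In the Combination, 9 fatty acid genes rose and 4 fell against DMSO, with a median of 0.12, beside 85.4% of all genes called (42.6% higher and 42.8% lower). With total-count scaling 6 rose and 8 fell, with a median of -0.08, and without DMSO library 3 there were 8 that rose and 5 that fell. Against JQ1 alone, 5 were higher and 4 lower in the Combination, beside 51.9% of all genes (26% higher and 25.9% lower). Against CAR alone, 9 were higher and 4 lower, beside 85.4% of all genes (42.4% higher and 43% lower).

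Set side by side, more sterol enzymes than fatty acid genes were lower with JQ1. Under JQ1 the sterol enzymes had 5 higher and 11 lower, and the fatty acid genes 7 higher and 5 lower; in the Combination the counts were 5 and 10 for sterol enzymes and 9 and 4 for fatty acid genes. Over all genes 41.5% were higher and 42.2% lower under JQ1, and 42.6% higher and 42.8% lower in the Combination. With total-count scaling the fatty acid genes had 6 higher and 7 lower under JQ1 and 6 higher and 8 lower in the Combination, and the sterol enzymes 5 higher and 13 lower in both. That scaling called 4561 genes higher and 6047 lower under JQ1, of 12645 tested, and 4216 higher and 6501 lower in the Combination. Without DMSO library 3, 7 fatty acid genes were higher and 7 lower under JQ1. For each library, the median over a list's genes of the log2 ratio to the DMSO mean was taken, and the sterol median minus the fatty acid median was between -0.167 and -0.112 in CAR, between -0.279 and -0.234 in JQ1 and between -0.384 and -0.290 in Combination libraries. In DMSO libraries that difference was -0.0793 to 0.112. All treated libraries lay below that DMSO range. Without DMSO library 3, and against the mean of the other DMSO libraries, CAR libraries had differences of -0.0735 to 0.0184, JQ1 libraries of -0.252 to -0.116 and Combination libraries of -0.317 to -0.207, against -0.0223 to 0.0223 in the 2 DMSO libraries. JQ1 and Combination libraries then still lay below the DMSO range, and CAR libraries overlapped it. In both cases the DMSO libraries were their own reference, which draws their range towards 0 and narrows it. Lying outside that range is therefore a description and no test. A library's scaling factor nearly cancels from such a difference. No test was made over the lists, whose genes were chosen with results of these data known.

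**Figure D4:**
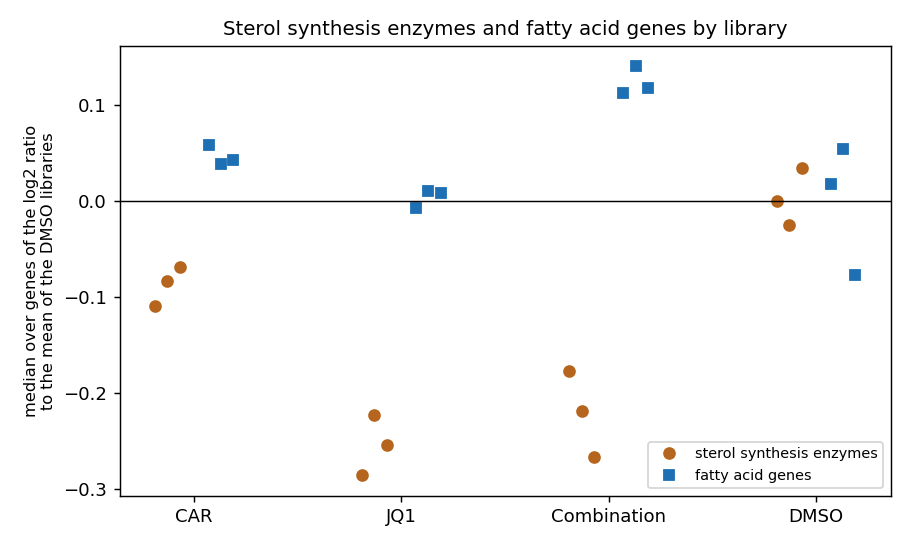
Median over the 18 sterol synthesis enzymes (circles) and over the 15 fatty acid genes (squares) of the log2 ratio to the gene's mean in DMSO libraries (vertical axis), 1 point per library. Sterol medians are below 0 in all treated libraries, at -0.286 to -0.0689, and fatty acid medians are highest in Combination libraries, at 0.113 to 0.140.

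The means of the lists differed from their medians, and for fatty acid genes in sign in the CAR libraries and in JQ1 library 1. In JQ1 libraries the fatty acid mean was 0.161 to 0.163, where the median was -0.00687 to 0.0109. The mean log2 ratio of the sterol enzymes was -0.122 to -0.0873 in JQ1 libraries, where the median was -0.286 to -0.223. For fatty acid genes it was -0.0143 to -0.00274 in CAR libraries, where the median was 0.0385 to 0.0579; against DMSO libraries 1 and 2 alone, that median was -0.0548 to -0.00296.

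The interaction asks whether CAR acted differently on the log2 scale, as a ratio, when JQ1 was present. Among sterol enzymes 9 of 18 were called with an interaction above 0 and none with one below, with a median over the list of 0.17. Among fatty acid genes 4 were called above 0 and 7 below, with a median of -0.10. Over all genes 38.3% were called (20.1% above and 18.2% below), with a median of 0.01. At 1.5-fold, the members called were TM7SF2 and ELOVL6, both above 0, where 9.78% of all genes passed (6.02% above and 3.76% below). No sterol enzyme was below 0 at an unadjusted p under 0.05 either, nor with DESeq2. The 9 were HMGCS1, MVK, MVD, IDI1, FDPS, TM7SF2, MSMO1, NSDHL and EBP, from 0.17 to 0.83. The count was 5 without JQ1 library 2, where HMGCS1, MVK, NSDHL and EBP lost the call (adjusted p = 0.0549, 0.0531, 0.0503 and 0.0580), and 7 without both DMSO library 3 and Combination library 1.

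The interactions of the fatty acid genes went both ways. ELOVL6 (0.65 ± 0.0527, adjusted p = 8.59e-09) and ACSS2 stood at the upper end, with FASN at 0.21 ± 0.0615 and FADS2 at 0.20 ± 0.0505. ACSL1 (-0.42 ± 0.0712, adjusted p = 0.0001), ACSL3 (-0.38 ± 0.0564, adjusted p = 2.11e-05), SCD5, ACACA (-0.31 ± 0.0993) and ACSL4 (-0.29 ± 0.0668) stood at the lower end. For ACSL3 and ACACA the value below 0 describes a level in the Combination lower than the single effects would add to. STARD4 was also below 0, at -0.29 ± 0.0692, and ABCA1 had 0.61 ± 0.303 (adjusted p = 0.126; 0.79 without DMSO library 3, adjusted p = 0.00158).

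**Figure D5:**
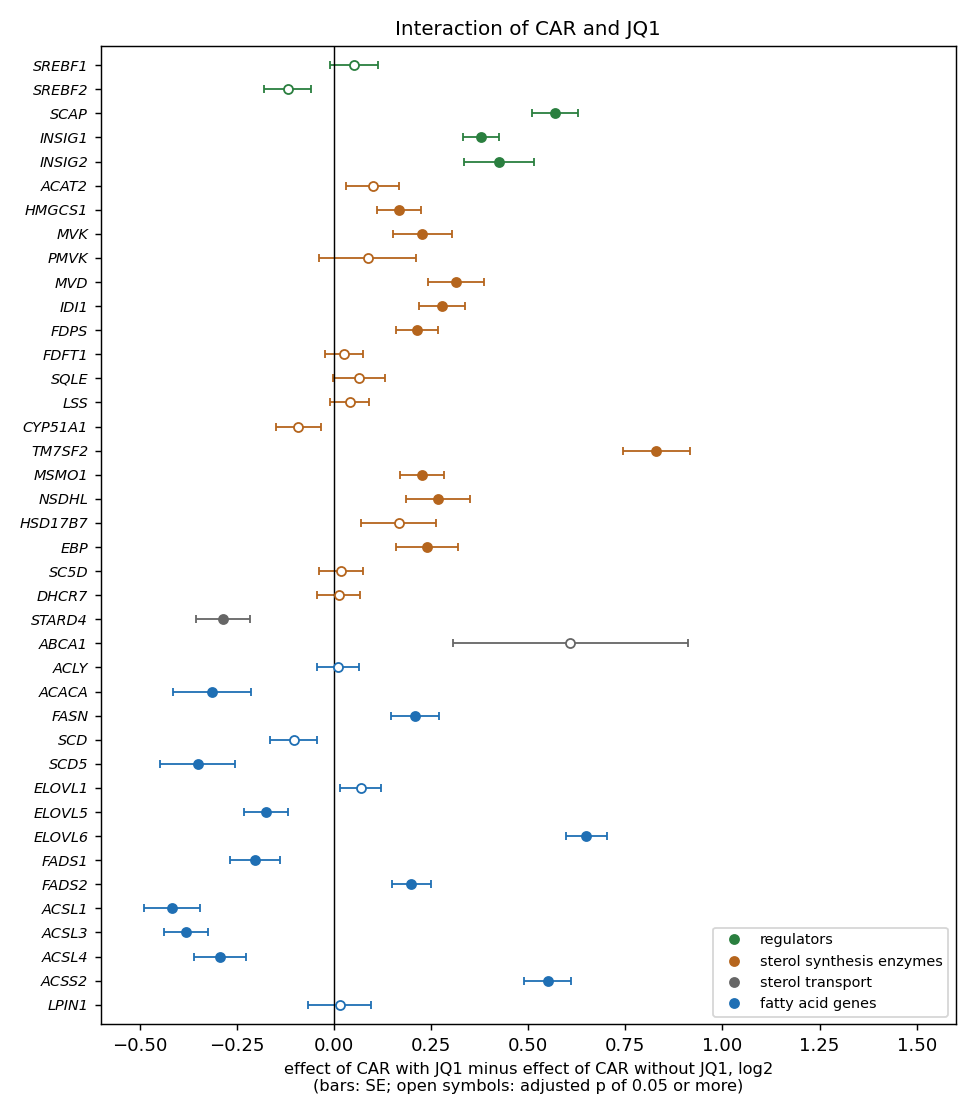
Interaction of CAR and JQ1 on the log2 scale (horizontal axis) for the 40 members, with bars for SE and open symbols where the adjusted p was 0.05 or more. Filled symbols of regulators and sterol enzymes all lie to the right of 0, up to 0.83 for TM7SF2, and those of fatty acid genes lie on both sides, from -0.42 for ACSL1 to 0.65 for ELOVL6.

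Genes next to these pathways were read from 3 further lists, beside the shares of all genes called given above and a median over all genes of -0.01 under JQ1. Of 20 other genes of lipid synthesis tested, 5 rose and 7 fell under CAR, 13 rose and 5 fell under JQ1, and 13 rose and 7 fell in the Combination; their median log2 fold change was 0.39 under JQ1. DGAT1, which makes triglyceride, rose 4.96-fold under JQ1 (log2 2.31 ± 0.0585), and ACSL5, another acyl-CoA synthetase, fell to 10, 9.34 and 9.32 CPM in JQ1 libraries, against 133, 133 and 129 CPM in DMSO libraries (log2 -3.78 ± 0.0743). Under CAR, ACACB, the mitochondrial acetyl-CoA carboxylase, fell (log2 -0.97 ± 0.0805) and ME1, which supplies NADPH, rose (log2 0.81 ± 0.0415). Of 10 genes of sterol sensing, storage and efflux, 2 rose and 5 fell under CAR, and 6 rose and 2 fell under JQ1, with a median of 0.35 under JQ1. NPC2, which moves cholesterol out of lysosomes, fell under CAR (log2 -0.40 ± 0.0445) and rose under JQ1 (log2 0.81 ± 0.0435). MYLIP, an LXR target that degrades lipoprotein receptors, did the same (log2 -0.52 ± 0.0697 under CAR and 0.91 ± 0.0616 under JQ1).

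Fatty acid oxidation genes, 17 in number, had 7 higher and 4 lower under CAR, 13 higher and 3 lower under JQ1, and 12 higher and 4 lower in the Combination, with a median of 0.45 under JQ1. CPT1A, which admits fatty acids to mitochondria, had 70.7, 67.5 and 69.3 CPM in CAR, 41.7, 37.5 and 44.4 CPM in JQ1 and 107, 106 and 103 CPM in Combination libraries, against 32, 32.2 and 27.1 CPM in DMSO libraries. All treated libraries were above every DMSO library. CPT1A rose 2.28-fold under CAR (log2 1.19 ± 0.0627, adjusted p = 1.91e-12) and was higher in the Combination than with JQ1 alone (log2 1.35 ± 0.06, adjusted p = 7.25e-14). ACADVL, a dehydrogenase of long chains, and ETFDH, the oxidoreductase of the electron transfer flavoprotein, rose under JQ1 by 1.15 ± 0.0432 and 1.78 ± 0.0843 on the log2 scale. The lowest log2 fold change of the list under JQ1 was -1.32. DECR1 was lower in JQ1 libraries, at 19.4, 21.2 and 20 CPM, against 51.2, 47.8 and 51.9 CPM in DMSO libraries.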

How the data were processed

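Gene-level read counts, 1 table per library, were deposited by the authors. Per the submitters' processing notes, Trimmomatic, HISAT2, HTSeq and the build hg38 were used; versions, annotation and strand setting were not given in the sources used here. The counts carried no normalization, and no table held a total or an unassigned category. Libraries were grouped by GEO's labels, 3 per group. The labels name no separate cultures, and the p-values reflect the spread among these libraries.

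Counts of all genes were filtered (edgeR 4.0.16, filterByExpr with a minimum count of 10 and total of 15, in R 4.3.3), scaled by TMM and fitted with 1 mean per group over the 12 libraries by the robust quasi-likelihood test. P-values were Benjamini-Hochberg adjusted over all 12645 genes tested, separately for each of 6 contrasts, and the SE is the size of the log2 fold change divided by the square root of F. Contrasts against DMSO share its 3 libraries, and contrasts with the Combination share that group. Total counts were 17449715 to 19754456; a floor of 3 counts corresponds to 0.147 to 0.177 CPM and covers counting error only.

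All 40 members may be named. From other lipid lists, up to 4 called genes with the largest change per contrast may be named. The members and lists were chosen with earlier results of these data known. Alternatives were DESeq2 1.42.0, other scalings and filters, a replicate block, a fit of the contrasted groups alone and leaving out libraries; leaving out DMSO library 3 with Combination library 1, and list medians taken without DMSO library 3, were added after seeing the data. Gene positions and overlaps came from GENCODE on hg38, and promoter windows from RefSeq on GRCh38.p14.

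Replicate numbers in the labels are shared between groups. Same-numbered libraries had correlations of deviations from -0.309 to 0.261, and 0 of the 12 libraries correlated best with their own number in every other group, so the numbers were not taken as pairs.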

Additional observations from a re-analysis of the deposited data

Results flagged for a closer look

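On the log2 scale, the effect of CAR with JQ1 present differed from its effect without JQ1 for 24 members. The interaction term of the model over all genes gave these calls, and 38.3% of all genes were called by it. Among the regulators the differences were 0.57 for SCAP, 0.38 for INSIG1 and 0.42 for INSIG2 on the log2 scale. Among the sterol enzymes they were 0.17 for HMGCS1, 0.23 for MVK, 0.31 for MVD, 0.28 for IDI1, 0.21 for FDPS, 0.83 for TM7SF2, 0.23 for MSMO1, 0.27 for NSDHL and 0.24 for EBP. STARD4 had -0.29. Among the fatty acid genes the differences above 0 were 0.65 for ELOVL6, 0.55 for ACSS2, 0.21 for FASN and 0.20 for FADS2. Those below 0 were -0.42 for ACSL1, -0.38 for ACSL3, -0.35 for SCD5, -0.31 for ACACA, -0.29 for ACSL4, -0.20 for FADS1 and -0.18 for ELOVL5.

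Leaving out 1 library ended the call of HMGCS1 (adjusted p = 0.0642 without CAR library 1, 0.0549 without JQ1 library 2, 0.0886 without Combination library 1 and 0.0574 without DMSO library 2), MVK (0.0546 without CAR library 3, 0.0531 without JQ1 library 2 and 0.0647 without Combination library 3) and EBP (0.0582 without CAR library 3, 0.0580 without JQ1 library 2, 0.0620 without Combination library 1 and 0.0556 without Combination library 3). It also ended that of NSDHL without JQ1 library 2 (0.0503), ACACA without CAR library 1 (0.0503) and ELOVL5 without JQ1 library 1 (0.0550). Without DMSO library 3, ACACA had -0.21 and FADS1 -0.13, and without both that library and Combination library 1, EBP had 0.16 (adjusted p = 0.0851).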

How the results depend on the processing

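Of 177 calls over the 40 members and 6 contrasts, 145 kept their direction and call in each of the 20 alternatives that gave a value, 29 lost the call in at least 1, and 5 changed sign. The 15 results outside the members that were followed through the alternatives kept direction and call in all of them. DECR1 was not among these results, and some of them are not described above. The fit of the contrasted groups alone gives no interaction. Scaling by total count moved the median of all genes to -0.08 under CAR, -0.13 under JQ1, -0.21 for the Combination against DMSO, -0.09 for the Combination against JQ1 and -0.15 for the Combination against CAR, and the share of calls that were higher to 35.7% under CAR (47.6% with TMM) and 39.3% for the Combination against DMSO (49.9% with TMM). Under it 6 sterol enzymes were called for the Combination against JQ1, in place of 10. The sterol interaction count ranged from 5 (without JQ1 library 2) to 10 over left-out libraries, and the count of all genes with an interaction was 4841, and 4169 with DESeq2.

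Medians that changed sign under total-count scaling were those of sterol enzymes, Combination against JQ1 (-0.0573), and of fatty acid genes under CAR (-0.0112) and in the Combination against DMSO (-0.0847). The fatty acid median under CAR was -0.0368 without DMSO library 3 and -0.0387 without DMSO library 3 and Combination library 1, and reached 0.0923 without DMSO library 2. The fatty acid median under JQ1, which is the value of LPIN1, was 0.00255 with no filter, 0.00028 with the replicate block, 0.000872 with the contrasted groups alone, and 0.00467, 0.052 and 0.0367 without JQ1 library 1, DMSO library 1 and DMSO library 2; without DMSO library 3 the median was -0.0722 and LPIN1 -0.0911. Single genes with total-count scaling were SREBF1 (-0.13), SREBF2 (-0.00095), SQLE (-0.148), ACLY (-0.0847), ELOVL6 (-0.0511) and FADS1 (-0.107) in the Combination against DMSO, ACLY against CAR (-0.000907), and SCAP (-0.0489) and SQLE (-0.000864) under CAR. Other sign changes were of values near 0: SCAP under CAR (-0.0162, -0.00496 and -0.00208, against 0.0390 without DMSO library 3), INSIG1 under CAR (0.0027 and 0.000757, against -0.0160 without DMSO library 1), FASN under CAR (0.0124, 0.0164 and 0.011, against -0.0710 without DMSO library 3), FADS1 under JQ1 (0.0102 and 0.0225, against -0.0884 without it), SQLE in the Combination (-0.0132) and STARD4 in the Combination (0.0103 and 0.038, against -0.0539 without DMSO library 3). The cause was not tested.

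With the replicate block no member lost its call, and ACACA under CAR gained one (0.16, adjusted p = 0.0444); the share of libraries that correlate best with their own number gives no hint of pairing. Depth limits the result for ABCA1 most, with 36 to 285 counts.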
